A study of Mus musculus with 12 samples.

Results

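The 7 genes described here were grouped under the name club cell secretoglobins and airway secretory proteins: the secretoglobins Scgb1a1, Scgb3a1 and Scgb3a2, the BPI-fold proteins Bpifa1 and Bpifb1, the cholecystokinin A receptor Cckar, and the matrix protein Chad. They were taken by symbol from the probes whose RefSeq transcript carries that name. Each of 6 genes was found, with 1 probe each, among 13654 named genes tested, and each was well above background on all 12 arrays. No probe carried an accession listed for Scgb3a2, which is not analysed here. Cckar is a membrane receptor and Chad a protein known from cartilage, so the name of the group does not follow from these roles. Whether club cells made either was not tested.

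Lung RNA came from mice of the strain FVB/N (FVB/NJ in a separate label), described as female and 7 weeks old at the start, with 1 array a sample. PBS mice had weekly PBS for 16 weeks, and LPS mice had weekly intranasal bacterial endotoxin (lipopolysaccharide, 5 ug) for as long. NNK mice had 3 mg of the tobacco nitrosamine NNK into the peritoneum over the first 4 weeks, and LPS_NNK mice had both agents on these schedules. Each group had 3 arrays, numbered PBS 1, 2 and 3, LPS 1, 5 and 6, NNK 2, 3 and 5, and LPS_NNK 2, 3 and 6, with animals killed 1 week after the last treatment. No genotype, transgene or vehicle injection for the NNK schedule is named. The labels also name no weekly PBS for the NNK mice and no age at death. LPS_NNK against NNK thus holds 16 weeks of nasal treatment as well as LPS, which LPS against PBS does not. If the last treatment of the NNK mice was their last NNK dose, they were also younger at death than the other groups. They were then sooner after NNK than the LPS_NNK mice. The labels do not settle this, and it cannot be told apart from treatment in comparisons with NNK or in the interaction. The labels do not say whether tumour was part of the tissue taken, whether RNA was pooled, or whether the arrays came from separate animals, so p-values measure the spread between these samples.

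Club cells are the secretory cells of the mouse bronchiole. They release secretoglobins, small proteins secreted in large amounts into the airway lining fluid, and they carry the cytochrome enzymes that activate compounds such as NNK. BPI-fold proteins are secreted mainly in the nose, trachea and larger airways, where they bind bacterial products and lower surface tension.

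Levels below are log2 of the background-subtracted signal minus the 75th percentile of the same array, so 0 marks the 75th percentile and 1 unit is a doubling. Because lung was measured in bulk, fewer cells of a type and less RNA per cell cannot be told apart. Differences are limma estimates from 1 fit over all 12 arrays, and a difference is called where its p, adjusted by Benjamini-Hochberg over 21855 items, is under 0.05. All 12 alveolar type 2 marker genes tested, Sftpc and Sftpb among them, were well above background on every array.

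The PBS arrays stood apart from the others. On them the share of spots well above background was 70.15% to 73.11%, where the treated arrays had 55.56% to 67.49%, and the 75th percentile of the signal was 699 to 984 against 183 to 509. The median of the spike-in controls ran the other way, at 9.05 to 10.09 against 10.47 to 11.39 on the log2 scale. PBS 1 and PBS 2 carried the Y-linked genes Ddx3y, Eif2s3y, Kdm5d and Uty well above background and Xist below it, against the label of female mice, while the other 10 arrays showed the reverse. The differences of the measured genes from PBS are therefore also given with PBS 3 as the lone PBS array, whose spread is then assumed to equal that of the other groups. Position on the slide followed the group, with PBS at position 1, LPS and NNK at 2 and LPS_NNK at 4, so position cannot be told apart from a comparison across these. No LPS array shared a slide with another array used here, so no comparison with LPS could be made within a slide. PBS 2 was also alone on its slide, and it alone was scanned on another day than the rest.

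Scgb1a1, the main secretory protein of club cells, was lower on each LPS_NNK array than on any other array. It stood at 7.97, 7.92 and 7.68 on PBS 1, 2 and 3, at 8.27, 8.10 and 8.08 on LPS 1, 5 and 6, and at 7.97, 7.88 and 7.80 on NNK 2, 3 and 5. On LPS_NNK 2, 3 and 6 it stood at 5.68, 6.85 and 6.86. The 9 arrays of the other groups lay within a range of less than 1 unit and did not overlap with the LPS_NNK arrays, of which LPS_NNK 2 was the lowest. By mean and SD (n = 3 each) the order was LPS at 8.15 ± 0.11, NNK at 7.88 ± 0.08, PBS at 7.86 ± 0.16 and LPS_NNK at 6.47 ± 0.68, and only the last step passed the test.

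Scgb1a1 fell in LPS_NNK 2.66-fold against NNK (log2 -1.41, SE 0.29, limma adjusted p = 0.00692). It fell 3.22-fold against LPS (log2 -1.69, SE 0.29, limma adjusted p = 0.0137) and 2.63-fold against PBS (log2 -1.39, SE 0.29, limma adjusted p = 0.00146). Neither agent alone gave a call: the difference from PBS was 0.29 for LPS (95% interval -0.34 to 0.93) and 0.02 for NNK (-0.61 to 0.65). The interaction is LPS_NNK minus NNK less LPS minus PBS, and also carries the missing weekly PBS and any age gap of the NNK mice. It was -1.71 (SE 0.42, limma adjusted p = 0.0079). With PBS 3 alone the differences from PBS were 0.47 for LPS, 0.20 for NNK and -1.21 for LPS_NNK (limma adjusted p = 0.449, 0.771 and 0.0619) and the interaction was -1.89 (limma adjusted p = 0.0486).

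Within the slides that held both groups, Scgb1a1 was 2.20 units lower on LPS_NNK 2 than on NNK 3 (log2 -2.20) and differed by -0.94 between LPS_NNK 3 and NNK 5. With the slide as a fixed effect, fitted on shared slides only and so without PBS 2 and the LPS arrays, the difference from NNK was -1.54 (limma adjusted p = 0.0203). Background correction by normexp ended the call against NNK (log2 -1.05, limma adjusted p = 0.285) and against LPS (log2 -1.78, limma adjusted p = 0.339). Quantile normalization and cyclic loess, which force the arrays to like distributions, turned the single-agent differences to called falls: -1.19 and -1.01 for LPS, -1.21 and -1.29 for NNK. The same 2 scalings gave -2.99 for LPS_NNK against PBS, and under both the interaction was no longer called (log2 -0.60 and -0.69), nor was it under normexp (log2 -1.13, limma adjusted p = 0.269). Scgb1a1 was thus not called for either agent alone when arrays were scaled to a percentile or a median, and was called for both agents under these 2 scalings.

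Scgb3a1, a secretoglobin known from the secretory cells of larger airways, was higher in all 3 treated groups than in PBS. It stood at 4.59, 3.96 and 5.75 on PBS 1, 2 and 3, at 7.21, 8.87 and 7.66 on LPS 1, 5 and 6, at 7.60, 7.12 and 7.15 on NNK 2, 3 and 5, and at 6.68, 7.63 and 5.89 on LPS_NNK 2, 3 and 6. All 9 treated arrays lay above the highest PBS array, PBS 3, though LPS_NNK 6 did so narrowly. The means ran from LPS at 7.92 ± 0.86 (SD, n = 3 each) through NNK at 7.29 ± 0.27 and LPS_NNK at 6.73 ± 0.87 to PBS at 4.77 ± 0.91, and neighbours above PBS did not differ past the threshold.

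Scgb3a1 rose 8.86-fold in LPS (log2 3.15, SE 0.52, limma adjusted p = 0.000342), 5.74-fold in NNK (log2 2.52, limma adjusted p = 0.00185) and 3.9-fold in LPS_NNK (log2 1.96, limma adjusted p = 0.00624). The rise with both agents was smaller than the sum of the single ones, by an interaction of -3.70 (SE 0.74, limma adjusted p = 0.00335). The treated groups did not differ from each other past the threshold: LPS_NNK minus LPS was -1.18 (95% interval -2.31 to -0.06, limma adjusted p = 0.177), LPS_NNK minus NNK -0.56 (-1.68 to 0.57), and LPS minus NNK 0.63 (-0.50 to 1.75).

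With PBS 3 as the lone PBS array the rise in LPS remained called at 2.16 (limma adjusted p = 0.0361). Those in NNK and LPS_NNK did not, at 1.53 (limma adjusted p = 0.12) and 0.98 (limma adjusted p = 0.283), nor did the interaction, at -2.72 (limma adjusted p = 0.0516). On the slide shared by NNK 2 and PBS 3 the difference was 1.84, and on that shared by LPS_NNK 6 and PBS 1 it was 1.30. Under normexp the interaction was -3.17 (limma adjusted p = 0.0547). Quantile normalization and cyclic loess also ended the call for LPS_NNK against PBS, at 1.0 and 0.56.

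**Figure D1:**
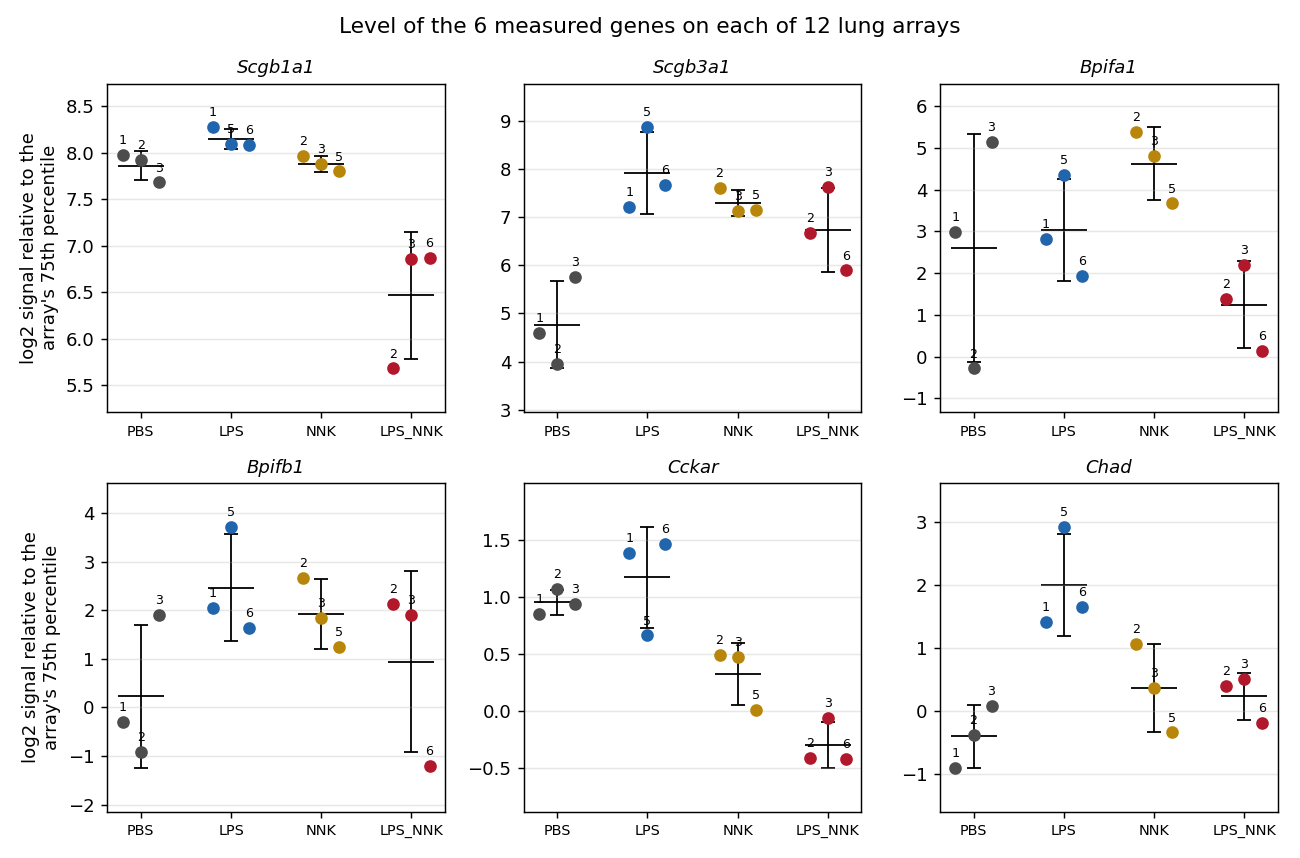
Level of each measured gene on every array, as log2 signal relative to the array's 75th percentile, by group; numbers beside the points are replicate numbers, and black bars give the mean and SD of 3 arrays. Scgb1a1 is lowest on the 3 LPS_NNK arrays (5.68 to 6.86), Scgb3a1 is lowest on the 3 PBS arrays (3.96 to 5.75), and Bpifa1 spreads widely within PBS (-0.29 to 5.14).

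Bpifa1, also called SPLUNC1, is a secreted protein of the upper airway that acts against bacteria and lowers surface tension. It varied more between arrays of a group than the secretoglobins did. It stood at 2.98, -0.29 and 5.14 on PBS 1, 2 and 3, at 2.81, 4.34 and 1.92 on LPS 1, 5 and 6, at 5.39, 4.82 and 3.67 on NNK 2, 3 and 5, and at 1.38, 2.20 and 0.14 on LPS_NNK 2, 3 and 6. The PBS arrays differed among themselves by 42.9-fold and overlapped with every treated group. The NNK and LPS_NNK arrays did not overlap with each other. The means ran from NNK at 4.62 ± 0.87 (SD, n = 3 each) through LPS at 3.03 ± 1.22 and PBS at 2.61 ± 2.73 to LPS_NNK at 1.24 ± 1.04, and no neighbours in that order differed past the threshold.

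Bpifa1 fell 10.4-fold in LPS_NNK against NNK (log2 -3.38, SE 1.05, 95% interval -5.64 to -1.12, limma adjusted p = 0.041). No other comparison of it was called: the differences from PBS were 0.42 for LPS (-1.84 to 2.68), 2.02 for NNK (-0.25 to 4.28) and -1.37 for LPS_NNK (-3.63 to 0.89), LPS_NNK minus LPS was -1.79 (-4.05 to 0.47), LPS minus NNK was -1.60 (-3.86 to 0.66), and the interaction was -3.80 (-7.00 to -0.61, limma adjusted p = 0.057). The interval for LPS against PBS spans several fold in both directions. With PBS 3 alone the difference of LPS_NNK from PBS was called, at -3.89 (limma adjusted p = 0.0101), and those of LPS and NNK were negative, at -2.11 and -0.51. With slide as a fixed effect the difference of LPS_NNK from PBS was called too, at -2.58 (limma adjusted p = 0.00517). That fit used shared slides only, and so left out the LPS arrays and PBS 2, the array with the lowest Bpifa1.

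The call of Bpifa1 in LPS_NNK against NNK was close to the threshold. It was lost without any 1 of the arrays PBS 1, LPS 1, NNK 2, NNK 3, LPS_NNK 2, LPS_NNK 3 or LPS_NNK 6 (limma adjusted p = 0.0512 to 0.141), and it was lost under quantile normalization, normexp and no filter on dim probes (limma adjusted p = 0.0696, 0.182 and 0.0639). Replicate number as a block ended it too (log2 -2.87, limma adjusted p = 0.0785). Its direction was the same in all of these. On shared slides the difference was -3.43 between LPS_NNK 2 and NNK 3 and -1.47 between LPS_NNK 3 and NNK 5. The interaction was called without PBS 3, at -5.06 (limma adjusted p = 0.0105), and without LPS 6, at -4.35 (limma adjusted p = 0.0477). Without PBS 3 the rise in NNK was called too, at 3.28 (limma adjusted p = 0.0133), and without PBS 2 the fall in LPS_NNK against PBS, at -2.82 (limma adjusted p = 0.0131).

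Bpifb1, or LPLUNC1, a BPI-fold protein of airway glands and goblet cells, was higher in LPS than in PBS on average. It stood at -0.30, -0.92 and 1.90 on PBS 1, 2 and 3, at 2.04, 3.72 and 1.64 on LPS 1, 5 and 6, at 2.67, 1.84 and 1.24 on NNK 2, 3 and 5, and at 2.13, 1.90 and -1.20 on LPS_NNK 2, 3 and 6. PBS 3 lay above LPS 6, NNK 3 and NNK 5, so PBS overlapped with each treated group, and LPS_NNK 6 was the lowest of all 12 arrays. The means ran from LPS at 2.47 ± 1.10 (SD, n = 3 each) through NNK at 1.92 ± 0.72 and LPS_NNK at 0.94 ± 1.86 to PBS at 0.23 ± 1.48, with no neighbours apart past the threshold.

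Bpifb1 rose 4.73-fold in LPS against PBS (log2 2.24, SE 0.87, limma adjusted p = 0.0425). The call was lost with PBS 3 alone (log2 0.57, limma adjusted p = 0.722), without any 1 of PBS 1, PBS 2, LPS 1, LPS 5 or NNK 3 (limma adjusted p = 0.0507 to 0.175), and under quantile normalization, cyclic loess and normexp (limma adjusted p = 0.0666, 0.073 and 0.0552). NNK minus PBS was 1.69 (95% interval -0.19 to 3.57), which was 0.0231 with PBS 3 alone (limma adjusted p = 0.99). It was called without PBS 3 (log2 2.53, limma adjusted p = 0.0319), without LPS_NNK 6 (log2 1.69, limma adjusted p = 0.0481) and with array weights (log2 1.88, limma adjusted p = 0.0129). LPS_NNK minus PBS was 0.72 (-1.16 to 2.60), or -0.95 with PBS 3 alone, and LPS_NNK minus NNK -0.97 (-2.86 to 0.91), and without LPS_NNK 6 the last was 0.10. LPS_NNK minus LPS was -1.52 (-3.40 to 0.36) and LPS minus NNK 0.55 (-1.33 to 2.43). The interaction was -3.21 (-5.88 to -0.55, limma adjusted p = 0.0537). It was called without PBS 3, LPS 6, LPS_NNK 2 or LPS_NNK 3 (limma adjusted p = 0.0198 to 0.0487).

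Cckar, a receptor of the peptide hormone cholecystokinin known from gut and pancreas, was lowest in LPS_NNK. It stood at 0.85, 1.07 and 0.94 on PBS 1, 2 and 3, at 1.39, 0.66 and 1.47 on LPS 1, 5 and 6, at 0.49, 0.47 and 0.01 on NNK 2, 3 and 5, and at -0.41, -0.06 and -0.42 on LPS_NNK 2, 3 and 6. Each NNK array lay below each PBS and LPS array, and each LPS_NNK array below each NNK array. The means ran from LPS at 1.17 ± 0.44 (SD, n = 3 each) through PBS at 0.95 ± 0.11 and NNK at 0.32 ± 0.27 to LPS_NNK at -0.30 ± 0.20, and no neighbours differed past the threshold.

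Cckar fell 2.38-fold in LPS_NNK against PBS (log2 -1.25, SE 0.26, limma adjusted p = 0.00135) and 2.77-fold against LPS (log2 -1.47, SE 0.26, limma adjusted p = 0.0147). The steps in between did not pass: LPS minus PBS was 0.22 (95% interval -0.34 to 0.78), NNK minus PBS was -0.63 (95% interval -1.19 to -0.07, limma adjusted p = 0.0581), LPS_NNK minus NNK -0.62 (-1.19 to -0.06, limma adjusted p = 0.116) and LPS minus NNK 0.85 (0.29 to 1.41, limma adjusted p = 0.0749). The interaction was -0.84 (-1.64 to -0.05, limma adjusted p = 0.085). The fall against PBS was called under all 14 other settings tried and with each array left out in turn, and with PBS 3 alone it was -1.24 (limma adjusted p = 0.04). The fall against LPS was lost under normexp (log2 -1.14, limma adjusted p = 0.402) and without LPS_NNK 6 (log2 -1.41, limma adjusted p = 0.0633). With PBS 3 alone LPS minus PBS was 0.23 and NNK minus PBS -0.62 (limma adjusted p = 0.688 and 0.287). NNK minus PBS was called under 6 of 14 other settings, namely quantile normalization, cyclic loess, slide as a random block, probes bright on all 12 arrays, an intensity trend and array weights (limma adjusted p = 0.013 to 0.0477, log2 -0.79 to -0.50). Without LPS 5, whose value was the lowest of its group, NNK minus PBS, LPS minus NNK and the interaction were each called (limma adjusted p = 0.036, 0.0322 and 0.0294). Without LPS 6 the first of these was called too (limma adjusted p = 0.0481).

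Chad, or chondroadherin, a leucine-rich repeat protein that attaches cells to cartilage matrix, was highest in LPS. It stood at -0.91, -0.38 and 0.08 on PBS 1, 2 and 3, at 1.41, 2.92 and 1.65 on LPS 1, 5 and 6, at 1.06, 0.37 and -0.34 on NNK 2, 3 and 5, and at 0.40, 0.50 and -0.19 on LPS_NNK 2, 3 and 6. Each LPS array lay above every array of the other groups, and the NNK arrays overlapped with both PBS and LPS_NNK. The means ran from LPS at 1.99 ± 0.81 (SD, n = 3 each) through NNK at 0.36 ± 0.70 and LPS_NNK at 0.24 ± 0.37 to PBS at -0.40 ± 0.49, and the step from LPS to NNK alone passed the threshold.

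Chad rose 5.26-fold in LPS against PBS (log2 2.40, SE 0.43, limma adjusted p = 0.000599), which was called under all 13 other settings and with each array left out. With PBS 3 alone the difference was 1.91 (limma adjusted p = 0.0428). It rose 3.09-fold in LPS against NNK (log2 1.63, limma adjusted p = 0.0411) and fell 3.38-fold in LPS_NNK against LPS (log2 -1.76, limma adjusted p = 0.0422). The interaction was -2.52 (SE 0.61, limma adjusted p = 0.00781), and -2.04 (limma adjusted p = 0.0922) with PBS 3 alone and -2.16 (limma adjusted p = 0.0607) under normexp. Neither NNK (0.77, 95% interval -0.17 to 1.70) nor LPS_NNK (0.64, -0.30 to 1.57) differed from PBS past the threshold, and LPS_NNK minus NNK was -0.13 (-1.06 to 0.81). With PBS 3 alone the differences from PBS were 0.28 for NNK and 0.15 for LPS_NNK.

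The calls of Chad that do not involve PBS were near the threshold. LPS against NNK was lost without PBS 2, LPS 5, NNK 3, NNK 5 or LPS_NNK 3 (limma adjusted p = 0.0508 to 0.167). LPS_NNK against LPS was lost without PBS 2, LPS 1, LPS 5, LPS 6, NNK 3, LPS_NNK 3 or LPS_NNK 6 (limma adjusted p = 0.0544 to 0.167), and under normexp (limma adjusted p = 0.351). Quantile normalization and no filter on dim probes ended both calls (limma adjusted p = 0.0596 and 0.0687 for LPS against NNK, 0.0529 and 0.0758 for LPS_NNK against LPS), and so did PBS 3 alone.

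**Figure D2:**
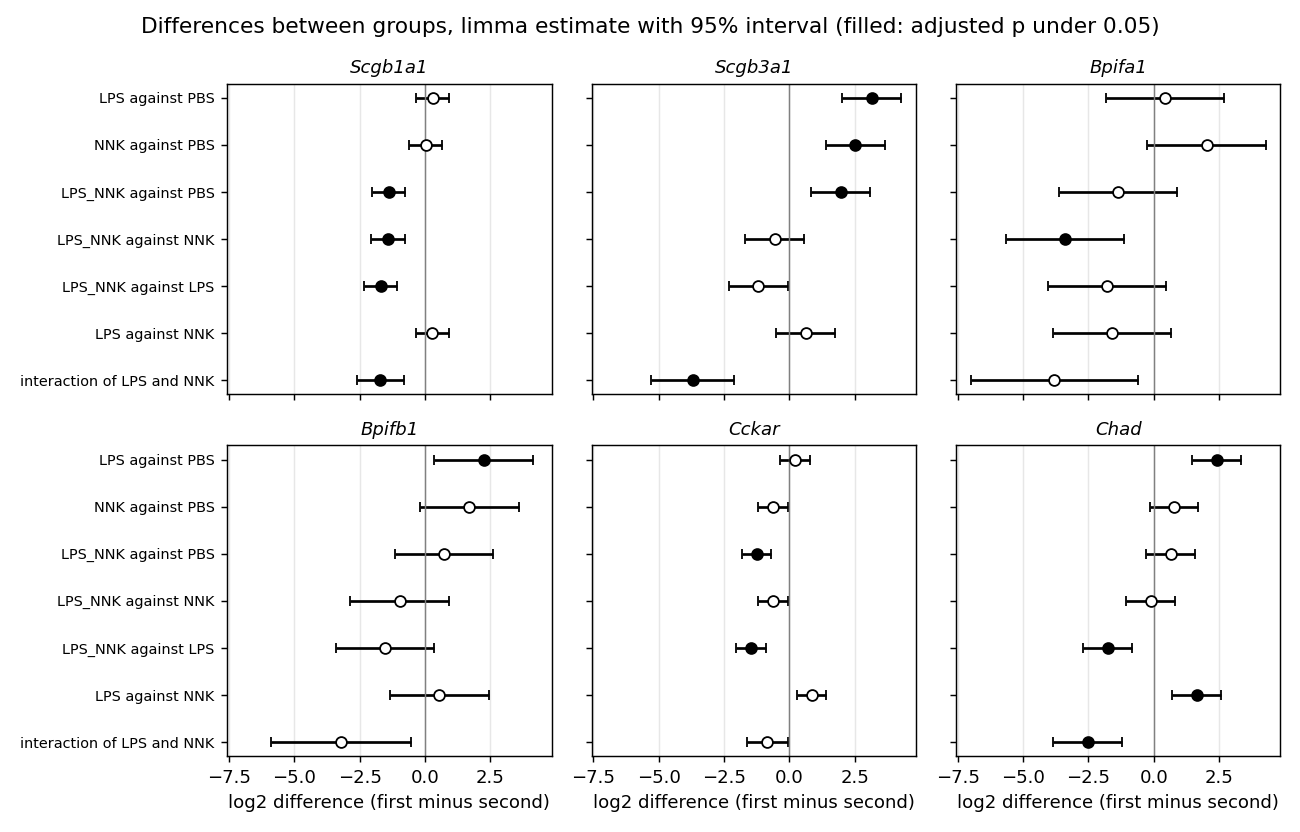
Differences between groups for the 6 genes, as log2 of the first group minus the second on the horizontal axis, with 95% intervals from limma; filled points have an adjusted p under 0.05. Of 42 differences 16 are filled, and the intervals of Bpifa1 and Bpifb1 are wider than those of Scgb1a1 and Cckar.

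Set side by side, 3 of the 6 genes were called in LPS against PBS, all as rises (Scgb3a1, Chad and Bpifb1), where 56% of all items were called and 26.1% as rises. In NNK against PBS 1 of 6 was called, a rise of Scgb3a1, against 51.5% of all items and 27.8% as rises. In LPS_NNK against PBS 3 of 6 were called, against 55.1% of all items: Scgb3a1 rose, as did 27.9% of items, and Scgb1a1 and Cckar fell, as did 27.1%. The share of members called in either direction was below that of all items in each of these comparisons, and the 3 comparisons share the PBS arrays.

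Comparisons without PBS had a lower background. In LPS_NNK against NNK 2 of 6 were called, both falls (Scgb1a1 and Bpifa1), against 17.3% of all items and 9.35% as falls. In LPS_NNK against LPS 3 of 6 were called, all falls (Scgb1a1, Cckar and Chad), against 4.11% of all items and 1.26% as falls. In LPS against NNK 1 of 6 was called, a rise of Chad, against 6.23% of all items and 2.74% as rises. In the interaction 3 of 6 were called, all negative (Scgb1a1, Scgb3a1 and Chad), against 38.7% of all items and 18.6% as negative, and all 6 estimates were below 0 with an unadjusted limma p under 0.05, as 49.3% of all items had in either direction.

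The median over the 6 genes was -0.80 in LPS_NNK against NNK and -1.60 in LPS_NNK against LPS, where the median of all items was -0.06 and 0.11. In LPS against NNK it was 0.59 against -0.14. Relative to the median of all items, the 3 falls against LPS were -1.79 for Scgb1a1, -1.58 for Cckar and -1.87 for Chad, and the rise of Chad against NNK was 1.77. With so few genes these counts describe the members and no wider class.

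Within groups, 4 of the genes followed the same arrays. Scgb3a1, Bpifa1, Bpifb1 and Chad each had their highest level in PBS on PBS 3, in LPS on LPS 5 and in NNK on NNK 2, and their lowest level in LPS_NNK on LPS_NNK 6. The distance from highest to lowest array of a group reached 5.42 units for Bpifa1 in PBS, 3.33 for Bpifb1 in LPS_NNK, 1.80 for Scgb3a1 in PBS and 1.51 for Chad in LPS. Scgb1a1 and Cckar did not share this order throughout: PBS 3 was the lowest PBS array for Scgb1a1, and LPS 5 the lowest LPS array for Cckar. In part they did, since both were highest in NNK on NNK 2, and Cckar was lowest in LPS_NNK on LPS_NNK 6. Outside LPS_NNK, Scgb1a1 varied by at most 0.29 units within a group.

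**Figure D3:**
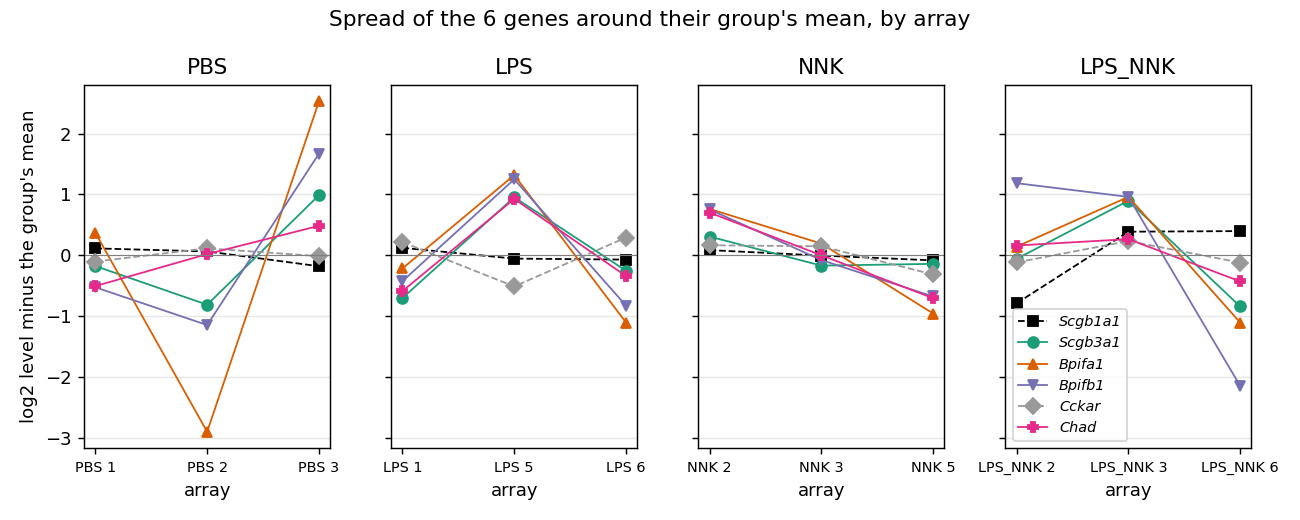
Level of each gene on each array minus the mean of its group, in log2 units, 1 panel a group; solid lines join Scgb3a1, Bpifa1, Bpifb1 and Chad, dashed lines Scgb1a1 and Cckar. The solid lines peak together on PBS 3, LPS 5 and NNK 2 and lie lowest together on LPS_NNK 6, and the dashed lines do not follow this order in PBS and LPS.

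Some markers of other tissue moved with this order. The summed level of 10 heart muscle genes, on a linear scale where 1 is the array's 75th percentile, was 99.6, 86.2 and 173 on PBS 1, 2 and 3, 122, 147 and 70.7 on LPS 1, 5 and 6, 231, 158 and 91.0 on NNK 2, 3 and 5, and 75.1, 135 and 57.5 on LPS_NNK 2, 3 and 6. All 10 were well above background on every array. In each of the 4 groups the 3 arrays stood in the same order by this sum as by Bpifa1. The summed level of 11 basal and squamous epithelial genes also had the order of Bpifa1 in all 4 groups, with 11.0 to 14.7 in PBS, 7.78 to 13.8 in LPS, 10.6 to 13.5 in NNK and 11.0 to 18.2 in LPS_NNK, and between 9 and 11 of them were well above background. Every gene list was compared with every member in this way, and only these matches held in all 4 groups. Each of these sums had the order of Bpifb1 in 3 groups, and that of Scgb3a1 and of Chad in 2. Linear sums weigh the brightest genes most. Among the basal genes Sfn had a mean log2 level of 3.34 in PBS, where Krt14 had -4.08. The order of a sum can thus be that of few of its genes, which was not tested. In LPS_NNK against NNK, where 9.35% of all items fell and 7.92% rose, 4 of the 10 heart muscle genes fell and none rose (median -1.23, against -0.06 over all items). Of the 11 basal genes 2 rose and none fell. The part of either in the differences of Bpifa1 was not tested.

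Promoters are shown for the 4 measured members that had one in the sequences used here, and not for their order of arrays. RefSeq annotates 1 start each for Scgb3a1, Chad and Bpifa1 and 2 for Bpifb1 in the table given here (GRCm38.p6), and the upstream one is printed. Each run spans 250 bases before the start and 50 from it, on the strand of the gene, here always the plus strand. Capitals mark matches, on either strand, to 5 short motifs: CAAGTG as bound by NKX2-1, TGTTTNC by FOXA factors, TTNCNNAA by C/EBP factors, TGANTCA by AP-1, and the TATA box TATAAA. The regions are chr11:49663345-49663644 for Scgb3a1, chr11:94564797-94565096 for Chad, chr2:154142630-154142929 for Bpifa1 and chr2:154190568-154190867 for Bpifb1.
Scgb3a1: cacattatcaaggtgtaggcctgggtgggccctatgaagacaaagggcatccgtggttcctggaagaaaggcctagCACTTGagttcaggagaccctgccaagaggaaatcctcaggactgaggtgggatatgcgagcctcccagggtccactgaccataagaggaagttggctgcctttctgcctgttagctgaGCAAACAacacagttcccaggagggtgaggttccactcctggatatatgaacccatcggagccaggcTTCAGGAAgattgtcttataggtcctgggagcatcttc
Chad: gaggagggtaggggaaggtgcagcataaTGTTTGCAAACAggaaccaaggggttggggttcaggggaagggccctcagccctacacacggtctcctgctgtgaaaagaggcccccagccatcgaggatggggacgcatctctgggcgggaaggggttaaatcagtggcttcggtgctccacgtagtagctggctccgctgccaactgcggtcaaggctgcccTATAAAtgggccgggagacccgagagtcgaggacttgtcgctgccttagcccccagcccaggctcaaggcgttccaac
Bpifa1: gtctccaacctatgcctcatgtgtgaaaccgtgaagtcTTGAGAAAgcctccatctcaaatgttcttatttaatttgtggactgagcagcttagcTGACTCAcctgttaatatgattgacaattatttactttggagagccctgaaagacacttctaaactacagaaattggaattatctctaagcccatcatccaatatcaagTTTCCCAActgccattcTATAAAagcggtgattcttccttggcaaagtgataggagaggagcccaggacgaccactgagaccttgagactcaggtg
Bpifb1: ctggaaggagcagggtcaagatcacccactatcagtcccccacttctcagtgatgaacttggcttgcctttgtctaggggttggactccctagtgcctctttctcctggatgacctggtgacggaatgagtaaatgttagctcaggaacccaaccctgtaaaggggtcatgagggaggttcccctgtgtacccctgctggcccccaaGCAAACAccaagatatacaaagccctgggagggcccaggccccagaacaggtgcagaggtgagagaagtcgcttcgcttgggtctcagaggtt

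Scgb3a1 held CAAGTG 174 bases before the start, on the opposite strand, a FOXA match 55 bases before it and a C/EBP match within the printed transcribed bases. Chad held a pair of overlapping FOXA matches beginning 222 and 217 bases before the start and a TATA box at 28. Bpifa1 held C/EBP matches at 212 and 46, an AP-1 match at 155 and a TATA box at 29 bases before the start. Bpifb1 held 1 FOXA match, 43 bases before the start, and its second annotated promoter held no match. FOXA letters were thus present for Scgb3a1, Chad and Bpifb1, and in 20.5% of all 32851 promoters of the table. The C/EBP letters were present for Scgb3a1 and Bpifa1 (40.7% of all promoters) and the TATA box for Chad and Bpifa1 (13.6%). CAAGTG was present for Scgb3a1 (13.6%) and the AP-1 letters for Bpifa1 (7.8%). With 4 genes no motif can be called more frequent than over all promoters. A match describes the letters and shows no binding. No promoter of Scgb1a1 or Cckar is printed here.

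Genes most like each member over the 12 arrays were found by Pearson r among named genes, as a description with arrays of 4 groups pooled. For Cckar they were Cldn10 (r = 0.93 over 12 arrays and 0.99 over the 9 treated arrays), a claudin known from club cells, Cyp4f15 (0.91 and 0.91) and Entpd8 (0.90 and 0.92). For Scgb3a1 they were Abcc8 (0.98 and 0.94), Ppp1r32 (0.97 and 0.90) and Shank2 (0.96 and 0.87). Abcc8 encodes the sulphonylurea receptor, a subunit of a potassium channel, and its partner Kcnj11 was among the genes most like Bpifb1 (0.92 and 0.87), with A2ml1 (0.94 and 0.99) and Rhpn1 (0.92 and 0.87).

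For Bpifa1 they were Rxrg (0.92 and 0.90), Perm1 (0.89 and 0.96) and Alpk3 (0.87 and 0.94), and Perm1 and Alpk3 are genes of striated muscle. For Chad they were Car11 (0.91 and 0.90), Lpar3 (0.90 and 0.88) and Elapor1 (0.88 and 0.90). For Scgb1a1 they were Trappc1 (0.92 and 0.95), Slc26a2 (0.92 and 0.97) and Dlat (0.90 and 0.93), none of which changed as far as Scgb1a1 did: Slc26a2 had means of -1.65 in PBS, -1.52 in LPS, -1.56 in NNK and -1.93 in LPS_NNK. The arrays of a group share treatment and, in part, slides, so these likenesses rest on few independent points.

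Relatives of the members by family were few. Of 50 other secretoglobin symbols 6 were on the array and none passed the filter on dim probes. Of 15 other BPI-fold symbols 6 were tested. Bpifa5, which lies between Bpifa1 and Bpifb1 in the RefSeq annotation, rose in LPS (log2 1.0), NNK (1.20) and LPS_NNK (1.24) against PBS (limma adjusted p = 0.00357, 0.00155 and 0.000827). Bpifb5, the next of the family after Bpifb1, rose by 1.67, 1.76 and 1.13 in the same comparisons. Lbp, which carries endotoxin to its receptor, rose 1.53 in LPS and 1.55 in NNK, and Pltp, which transfers phospholipids, 1.15 and 1.48. In all, 4 of the 6 rose in LPS, 5 in NNK and 3 in LPS_NNK against PBS and none fell, with medians of 1.08, 1.34 and 0.88, where the medians of all items were -0.06, 0.04 and -0.04. Of all items 26.1%, 27.8% and 27.9% rose in these comparisons. Counted with PBS 3 alone, 2, 3 and 2 of the 6 rose, where 13%, 12.6% and 17.5% of all items did. In LPS_NNK against NNK, where 9.35% of all items fell, Pltp fell (log2 -1.62, limma adjusted p = 0.00274) and the other 5 were not called.

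Other airway secretory products included several that rose in LPS_NNK against NNK. Of 22 tested, 5 rose and 2 fell (median 0.86, against -0.06 over all items), where 7.92% of all items rose and 9.35% fell. Pigr, which carries immunoglobulin A across the epithelium, rose by 4.20 (limma adjusted p = 0.000633), the protease inhibitor Slpi by 2.62 (limma adjusted p = 0.00305) and the trefoil peptide Tff1 by 1.82 (limma adjusted p = 0.00569), while the membrane mucin Muc1 fell by 2.26 (limma adjusted p = 0.0134). In LPS against NNK, where 2.74% of all items rose, Pigr (4.07) and the trefoil peptide Tff2 (4.36) rose and the other 20 were not called. Against PBS, 14 of the 22 rose in LPS, 6 in NNK and 11 in LPS_NNK and none fell, where 26.1%, 27.8% and 27.9% of all items rose, so that the count in NNK was at the background. Against PBS 3 alone 7, 3 and 8 rose, where 13%, 12.6% and 17.5% of all items did. Dmbt1, a scavenger protein of mucosal surfaces, rose by 5.52 in LPS and 6.20 in NNK, and lactoferrin, Ltf, by 4.90 and 4.59. Dmbt1 was called in both with PBS 3 alone, at 4.43 and 5.10, and Ltf in neither, at 2.70 and 2.39 (limma adjusted p = 0.104 and 0.158). In the interaction 4 of 22 were called, all negative, with Dmbt1 at -6.30 and Muc1 at -4.43. As 18.6% of all items were called negative there, the count of 4 was at the background. With PBS 3 alone the estimates for Dmbt1 and Muc1 were -5.21 and -4.67, given as sizes and not as calls.

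Enzymes and surface genes of club cells were mixed. Of 20 tested, 5 fell and 1 rose in LPS_NNK against NNK (median -0.46), where 9.35% of all items fell and 7.92% rose. Among those that fell were Cyp4b1 (log2 -1.36, limma adjusted p = 0.0162), Cyp2b10 (log2 -1.19, limma adjusted p = 0.0163) and Aldh1a1 (log2 -0.87, limma adjusted p = 0.0139), all enzymes that oxidise foreign or endogenous compounds. In LPS_NNK against LPS Cldn10 fell (log2 -1.06). Against PBS, 6 rose and 4 fell in LPS, 5 rose and 8 fell in NNK, and 5 rose and 8 fell in LPS_NNK. Of all items 29.9%, 23.7% and 27.1% fell, and 26.1%, 27.8% and 27.9% rose. Against PBS 3 alone 3 rose and 2 fell in LPS, 4 rose and 1 fell in NNK, and 3 rose and 8 fell in LPS_NNK. Upk3a, which marks a subset of club cells, was among those that rose, in LPS (4.14), NNK (3.84) and LPS_NNK (3.70). The summed level of the 20 genes did not separate the groups as Scgb1a1 did: it was 1594 to 1771 in NNK, and 1095, 2410 and 1971 on LPS_NNK 2, 3 and 6. LPS_NNK 2, the array with the lowest Scgb1a1, was thus also the lowest LPS_NNK array by this sum, and by the sum of 12 alveolar type 2 genes (1362, against 2750 and 2700 on LPS_NNK 3 and 6). The part of this in the difference of Scgb1a1 was not tested, and without LPS_NNK 2 that difference from NNK was -1.02 (limma adjusted p = 0.0316).

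Among 21 transcription factors and Notch pathway genes of secretory cells, 5 fell and 1 rose in LPS_NNK against NNK (median -0.61). Of all items 9.35% fell and 7.92% rose there. Klf5 (log2 -1.58, limma adjusted p = 0.00348), the Notch ligand Jag1 (log2 -1.45, limma adjusted p = 0.0143) and Foxa1 (log2 -1.11, limma adjusted p = 0.0231) fell, and Ehf rose (log2 1.15, limma adjusted p = 0.0262). Against PBS, 9 rose in LPS, 12 in NNK and 9 in LPS_NNK, and 1 fell in each of NNK and LPS_NNK; with PBS 3 alone 3, 5 and 3 rose. With all PBS arrays 26.1%, 27.8% and 27.9% of all items rose, and 23.7% and 27.1% fell in NNK and LPS_NNK. Among the genes of this list that rose were Nkx2-1, 1.54 higher in NNK (limma adjusted p = 0.00162) and Spdef, a factor of mucous cells, 2.33 higher in LPS (limma adjusted p = 0.000576). None of the 21 was called in LPS_NNK against LPS or in LPS against NNK.

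Beside Cckar, 9 genes of the cholecystokinin and neuroendocrine list were tested. Of these 7 rose in NNK against PBS, Calca by 1.97 and Chga by 2.14 among them (limma adjusted p = 0.000288 and 0.00167), and none fell, where Cckar itself was not called (-0.63). Of all items 27.8% rose in that comparison. Of the 9, 2 rose with PBS 3 alone. In LPS_NNK, where Cckar fell, 2 of the 9 rose and none fell against PBS, and none was called against LPS. Of all items 27.9% rose and 27.1% fell against PBS, and 4.11% were called against LPS. Beside Chad, 10 cartilage genes were tested. In LPS against PBS 4 rose and 1 fell (median 0.63, against -0.06 over all items), and none was called with PBS 3 alone or in LPS against NNK, where Chad was. Over all items 26.1% rose and 29.9% fell in LPS against PBS. In LPS_NNK against LPS the cartilage collagen Col2a1 rose (log2 1.28, limma adjusted p = 0.0422), and Cytl1 fell (log2 -1.34, limma adjusted p = 0.0212). The summed level of the 10 genes was 7.77 to 8.80 in PBS, 7.83 to 9.08 in LPS, 9.56 to 11.0 in NNK and 8.28 to 13.9 in LPS_NNK, ranges that overlap between PBS and LPS, and 8 to 10 of them were well above background.

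Some markers of other lung cells also differed between LPS_NNK and NNK, beside the fall of Scgb1a1. Over all items 9.35% fell and 7.92% rose in this comparison. Of 15 ciliated cell genes 4 fell, Dnah5 and Hydin among them (log2 -1.37 and -1.68), and none rose, and their sum was 43.6 to 58.9 in LPS_NNK and 58.8 to 86.0 in NNK. Of 12 alveolar type 2 genes 4 fell, Sftpb by 1.69, and none rose, with sums of 1362 to 2750 and 1551 to 2210. Of 15 leukocyte genes 6 rose, Fcgr1 by 3.45 and Cd3g by 2.80, and none fell, with sums of 90.3 to 131 and 77.6 to 85.0. Of 10 airway smooth muscle genes 3 fell and none rose, with sums of 138 to 178 and 191 to 240. Of 10 alveolar type 1 genes 1 fell (10%), and of 12 endothelial genes 1 fell (8.33%). None of either list rose, so both stood near the share of all items that fell. The part of the cell mixture in the members' differences was not tested.

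**Figure D4:**
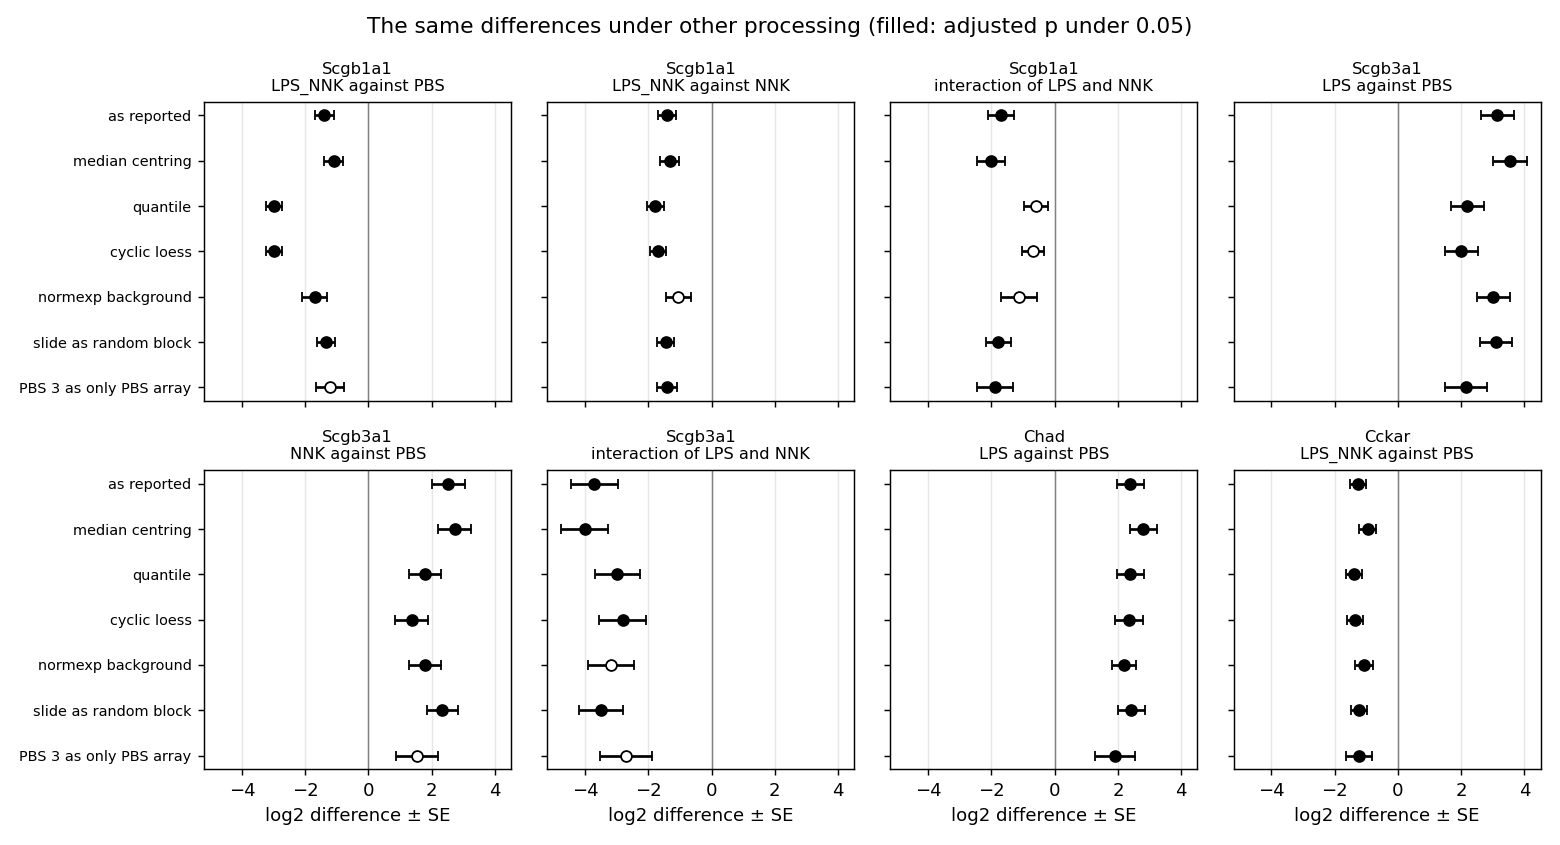
Selected differences of Scgb1a1, Scgb3a1, Chad and Cckar, in log2 units with their SE, as reported and under 6 other ways of processing the same arrays; filled points have an adjusted p under 0.05. Every estimate keeps its sign, the fall of Scgb1a1 against NNK is called in all but normexp (log2 -1.05), and the rise of Scgb3a1 in NNK is called in all but the setting with PBS 3 as the only PBS array (log2 1.53).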

How the data were processed

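Total RNA of lung tissue was labelled with 1 dye (Cy3) and hybridised to 12 Agilent mouse arrays, 3 in each of 4 groups. The deposited scanner files give an intensity per spot, made with Agilent Feature Extraction 10.7.3.1 per the file headers (10.7 per the submitters' processing notes), which subtracted background and detrended within an array without scaling between arrays. The deposited series table of log2 values, made with Partek per the submitters' processing notes, matched the log2 values computed here with a median absolute difference of 0.000268 and served as an alternative. No genome build is named in the sources used here.

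Outlier and control spots were left out, spots averaged to 41174 probes, and log2 of the processed intensity was taken minus each array's 75th percentile over its probes. RefSeq accessions gave a symbol to 59.2% of probes (RefSeq table of GRCm38.p6). Probes well above background on all arrays of at least 1 group were kept, and the brightest stood for its gene, which left 21855 items, 13654 of them named. The 6 measured members passed this filter on all 12 arrays.

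Fits used limma 3.58.1 in R 4.3.3 (lmFit with a mean per group, contrasts, eBayes; 8 residual and 5.5 prior degrees of freedom), 2-sided, with Benjamini-Hochberg adjustment over all items and a threshold of 0.05 in 7 comparisons. An exact permutation test of 3 arrays against 3 cannot go below p = 0.1, so none is given. The fit was tested on simulated data with known changes. For arrays, the number of arrays limits the precision. Normexp used the median spot signal with its local background median, since the files used here have no mean signal column. Promoter sequences are RefSeq's, at GRCm38.p6, for 4 members. Figures were drawn with matplotlib 3.10.9.

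The members were given as a list, and the members and lists were chosen with earlier results of these data known. All members are named. Of each gene list up to 4 genes with the smallest limma p in the comparison described may be named, together with the 3 named genes most correlated with each member and, as a check of the labels, Xist and 4 Y-linked genes. The alternatives tried were quantile normalization, cyclic loess, centring on the median, normexp, other filters on dim probes, the mean of a gene's probes, the deposited table, an intensity trend, array weights, slide and replicate number as blocks, each array left out, and PBS 3 as the only PBS array. For the gene lists the last was added after seeing the data.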

Additional observations from a re-analysis of the deposited data

Results flagged for a closer look

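In 3 genes LPS_NNK minus NNK differed from LPS minus PBS by limma's test of the interaction. The labels name no weekly PBS for the NNK mice, so the contrast also holds the nasal treatment. It also holds any difference of the NNK mice in age at death and time since NNK. None of these can be told apart from LPS here. For Scgb1a1 the interaction was -1.7064 on the log2 scale (limma adjusted p = 0.0079): LPS minus PBS was 0.29 and LPS_NNK minus NNK -1.41. For Scgb3a1 it was -3.704 (limma adjusted p = 0.00335), with 3.15 and -0.56, and for Chad -2.5239 (limma adjusted p = 0.00781), with 2.40 and -0.13. The interaction rests on the PBS arrays, and with PBS 3 alone it was -1.89, -2.72 and -2.04 (limma adjusted p = 0.0486, 0.0516 and 0.0922). Under normexp it was -1.13, -3.17 and -2.16 (limma adjusted p = 0.269, 0.0547 and 0.0607), and for Scgb1a1 it was -0.60 and -0.69 under quantile normalization and cyclic loess. The interaction was called for 38.7% of all items.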

How the results depend on the processing

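Over 1068 other values of the 42 member differences, 946 kept their direction and their side of the threshold, 55 lost a call, 39 gained one and 28 changed sign, none of the last among the 16 called differences. The measured members were well above background on all arrays, so the limits are 3 arrays a group, PBS arrays of another brightness and sex signal, a slide position that follows the group, and LPS arrays on slides of their own. The array weights stopped before full convergence. The cause of the changes below was not tested.

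Normexp gave 0 members called in LPS_NNK against NNK, 0 in LPS_NNK against LPS and 0 in the interaction (2, 4 and 4 with an unadjusted limma p under 0.05). Of all items normexp called 1.62%, 0% and 0.261% in these. PBS 3 alone gave 0 in NNK against PBS, 0 in LPS against NNK (1 and 3 unadjusted) and 1 in the interaction. Quantile normalization gave 3 in NNK against PBS, 1 in LPS_NNK against NNK and 0 in LPS against NNK, and no filter on dim probes 1 and 0 in the last pair (2 unadjusted in LPS against NNK under each). Of all items 52.1%, 16.5% and 5.19% were called under quantile normalization, and 7.64% and 2.92% without the filter. Cyclic loess gave 3 in NNK against PBS, where it called 50.7% of all items. Centring on the median gave 2 in LPS against NNK and 6 in the interaction, and array weights 2 and 5, with 5 in NNK against PBS; under array weights 32.1%, 63.3% and 74.4% of all items were called there, and under centring 5.45% and 40.6% in the first 2. An intensity trend and probes bright on all 12 arrays each gave 2 in NNK against PBS and 5 in the interaction, and slide as a random block 2 in NNK against PBS. In NNK against PBS these settings called 52.1%, 54.8% and 53.9% of all items. In the interaction the first 2 called 39.4% and 43%. With each array left out the counts ran from 2 to 3 in LPS, 1 to 3 in NNK and 3 to 4 in LPS_NNK against PBS, 1 to 2 in LPS_NNK against NNK, 1 to 3 in LPS_NNK against LPS, 0 to 1 in LPS against NNK and 3 to 5 in the interaction. Against PBS the share of all items called then ran from 46.7% to 60.3%, 39.6% to 56.1% and 46.6% to 57.2%. In the other comparisons, in the same order, it ran from 7.23% to 26.6%, 0.361% to 22.1%, 2.75% to 9.7% and 28.5% to 45.7%.

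Same-numbered arrays did not pair: over 9 such pairs the deviations from group means correlated at -0.147 to 0.408. The replicate block gave 1 call in LPS_NNK against NNK, where Bpifa1 was not called (log2 -2.87, limma adjusted p = 0.0785), and 5 in the interaction, where Bpifb1 and Cckar gained one. Of all items the block called 16.9% and 39.6% there. It turned Chad in LPS_NNK against NNK to 0.0703.

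Signs of uncalled differences turned in these cases. Bpifa1 in LPS against PBS was -2.11 with PBS 3 alone and -0.0516 under cyclic loess, and ran from -1.03 to 1.68 with each array left out. Bpifa1 in NNK against PBS was -0.51 with PBS 3 alone and -0.0056 with slide as a fixed effect. Bpifb1 in LPS_NNK against PBS was -0.95 with PBS 3 alone and -0.0412 with slide fixed, which also gave -0.0849 in NNK against PBS and 0.0437 in LPS_NNK against NNK. With arrays left out it ran from -1.57 to 0.0977 in the latter and from -0.0754 to 0.96 in LPS against NNK. Chad in LPS_NNK against NNK was 0.0397 under normexp, 0.30 with slide fixed and 0.0187 with slide as a random block, and ran from -0.48 to 0.22 with arrays left out. Scgb1a1 was -1.19 (quantile) and -1.01 (cyclic loess) in LPS against PBS, and -1.21, -1.29, -0.65 (normexp) and -0.0044 (array weights) in NNK against PBS, with -0.0686 to 0.0779 when arrays were left out. Array weights gave -0.12 for Cckar in LPS against PBS and 0.0804 for Scgb3a1 in LPS_NNK against NNK.

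Scaling also moved all items. In LPS, NNK and LPS_NNK against PBS the median of all items was -0.06, 0.04 and -0.04, and 0.34, 0.24 and 0.26 after centring on the median; rises made up 46.5%, 54% and 50.7% of calls, against 65.4%, 65.4% and 64.6% after centring and 63.9%, 82.2% and 79.9% under normexp. In LPS_NNK against LPS that share went from 69.3% to 50.8% with centring and 56.8% with cyclic loess, in LPS against NNK from 43.9% to 64.8%, 59.5% and, with quantile, 55.7%, and in the interaction from 51.9% to 34.4%. Normexp called 354 items in LPS_NNK against NNK and 0 in LPS_NNK against LPS (1525 unadjusted), against 3773 and 898. For the interaction normexp called 57 and PBS 3 alone 2630, against 8464.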
